A study of Mus musculus with 8 samples.

Results

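Neat1, Kcnq1ot1, Airn, Chaserr and Mir9-3hg are 5 long noncoding RNAs that act in the nucleus or at the locus from which they are transcribed. They were measured here in the brains of newborn and embryonic mice that carried parental duplications of parts of chromosomes 7 and 15. They are 5 of the 10062 genes named on the array, and every probe set annotated with the current or an older symbol of one of them was taken, which gave 15 of 22511. Neat1 and Mir9-3hg had 1 probe set each, Chaserr had 2, Airn had 5 and Kcnq1ot1 had 6. Where a gene had several they are lettered from A in falling order of mean signal, with a probe set shared with another gene placed last. Airn E is annotated to Airn and Igf2r together, so its signal cannot be assigned to either gene.

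The 8 samples were total RNA from neonatal cortex (forebrain), neonatal cerebellum and whole brain of embryos at 15.5 and 13.5 days post coitum (dpc), each hybridised to 1 Affymetrix 430B array. All mice were T9H/+ heterozygotes, that is, carriers of a reciprocal translocation between chromosomes 7 and 15. In each of the 4 contexts, 1 sample held both copies of proximal chromosome 7 from the mother and both copies of proximal chromosome 15 from the father (matdup of proximal Chr 7 with patdup of proximal Chr 15, called maternal-7). The other held the reverse (patdup of proximal Chr 7 with matdup of proximal Chr 15, called paternal-7). The chromosome 15 duplication therefore always changed together with that of chromosome 7, and no array measured mice without a duplication. The newborn samples were dissected regions and the embryonic samples whole brains. Between newborn and embryonic samples, age and the part of brain taken therefore cannot be told apart. There was 1 array for each context and duplication, the labels do not say whether animals were pooled, and each p-value therefore rests on how much these arrays vary alone. The labels give no breakpoint. In the RefSeq gene table the chromosome 7 genes used here lie in the order Snhg14, Chd2, Chaserr, Mir9-3hg and Kcnq1ot1, while Airn lies on chromosome 17 and Neat1 on chromosome 19.

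Neat1 is the scaffold on which paraspeckles, nuclear bodies of RNA and RNA-binding proteins, are built. Kcnq1ot1 and Airn are paternally expressed antisense transcripts of imprinted domains, where each lowers the expression of neighbouring genes on its own chromosome copy. Chaserr is transcribed next to Chd2, a chromatin remodeller gene, and holds down its expression in cis. Mir9-3hg is the host transcript of Mir9-3, one of the loci that make miR-9, a microRNA of neural progenitors and young neurons whose best known targets include Rest, the repressor of neuronal genes, and Nr2e1 (Tlx), which keeps progenitors dividing.

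The microRNA made from the Mir9-3hg locus is shown because of its host's difference between newborn and embryonic samples. Of the differences called for these long noncoding RNAs, it alone was kept under all processing tried and with each array left out. The array measures the host transcript and not the mature microRNA. RefSeq (GRCm38.p6) gives the same mature sequences for 3 loci, of which Mir9-3 lies within Mir9-3hg and Mir9-2 within C130071C03Rik. The capitals mark the seed, bases 2 to 8, of the 5p and the 3p arm.
mmu-miR-9-5p: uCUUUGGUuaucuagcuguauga
mmu-miR-9-3p: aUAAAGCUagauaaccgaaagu
The hairpins of these 2 loci, with both mature arms in capitals, differ only outside the capitals.
Mir9-3: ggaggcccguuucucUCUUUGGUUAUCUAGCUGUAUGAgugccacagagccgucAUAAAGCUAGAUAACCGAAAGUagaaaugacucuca
Mir9-2: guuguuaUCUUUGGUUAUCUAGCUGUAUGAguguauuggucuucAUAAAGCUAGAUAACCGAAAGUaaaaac

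RefSeq start windows, from 250 bases before to 50 bases after a gene's start, were at hand for 4 of the 5 genes. The windows of Chaserr and Mir9-3hg are shown because Mir9-3hg and 1 of the 2 Chaserr probe sets, Chaserr A, gave lower signals in paternal-7 in every context, as described further on. They are given 5′ to 3′ on the gene's own strand with each CG dinucleotide, which reads the same on both strands, in capitals.
Chaserr, GRCm38.p6, chr7:73558346-73558645, minus strand: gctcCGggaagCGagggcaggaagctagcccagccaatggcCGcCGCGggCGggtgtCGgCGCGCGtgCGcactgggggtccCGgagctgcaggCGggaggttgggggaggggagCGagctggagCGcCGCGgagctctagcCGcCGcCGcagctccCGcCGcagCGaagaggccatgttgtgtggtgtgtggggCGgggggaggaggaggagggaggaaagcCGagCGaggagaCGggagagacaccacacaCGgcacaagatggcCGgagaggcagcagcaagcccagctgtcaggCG
Mir9-3hg, first start, GRCm38.p6, chr7:79499776-79500075, plus strand: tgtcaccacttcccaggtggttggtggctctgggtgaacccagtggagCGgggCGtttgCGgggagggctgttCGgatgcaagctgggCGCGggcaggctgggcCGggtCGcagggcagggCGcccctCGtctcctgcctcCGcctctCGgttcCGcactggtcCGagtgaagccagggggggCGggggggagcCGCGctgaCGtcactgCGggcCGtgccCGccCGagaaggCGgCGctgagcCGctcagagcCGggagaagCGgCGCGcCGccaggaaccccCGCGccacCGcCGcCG
The Mir9-3hg window holds 35 CG dinucleotides, more than 93.0% of the 32851 windows in the table. That of Chaserr holds 30, more than 88.3%. The second start of Mir9-3hg has 28 (more than 85.8%), Kcnq1ot1 has 9 (more than 54.2%) and Airn has 3 (more than 23.3%), where the median of all windows is 7. No methylation was measured here.

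Signals are MAS5 intensities on a linear scale that had been brought to a common mean by the authors. The median signal of an array lay between 229.8 and 285.7, and a signal below it was treated as not distinguishable from background. Testing was limited to the 13221 probe sets that 2 or more of the 8 arrays gave a signal above their median. Among the 15 probe sets 7 were tested, namely Neat1, Kcnq1ot1 A and B, Airn A, Chaserr A and B, and Mir9-3hg. The other 8 were 4 of Kcnq1ot1 and 4 of Airn, and 7 of them lay below the median on every array, with signals of 2.0 to 182.3. The exception was Airn E, at 343 in the 15.5 dpc paternal-7 brain and 58.5 in its maternal-7 partner. Differences are given as log2(signal + 58.5) with the standard error (SE) of limma, a linear model of context plus duplication, and a call means a p-value under 0.05 after Benjamini-Hochberg adjustment over all 13221 probe sets. On this scale the change of a dim probe set is understated.

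As a check of the labels, the paternally expressed Snhg14 of proximal chromosome 7 had signals of 0.3 to 38.8 on the maternal-7 arrays and of 131 to 2372 on the paternal-7 arrays over its 3 probe sets. One of these was the only probe set on the array called between the duplications (log2 difference 3.41 ± 0.22 SE, adjusted p = 0.0194). Among the tissue markers, Neurod2 and Bcl11b, transcription factors of cortical neurons, were called higher in cortex, and Tfap2b, of cerebellar interneurons, was called higher in cerebellum (2 of 4 tested cortex markers and 1 of 3 tested cerebellum markers). All 3 tested neuron markers (of 6 listed), Rbfox3, Syt1 and Map2, were called higher in newborn than in embryonic samples. Of all tested probe sets 14.3% were called so. The summed signal of these 3 markers was 9975 to 15372 at 13.5 dpc, 27055 to 28302 at 15.5 dpc and 39970 to 48661 in the newborn. Both tested astrocyte markers (of 4 listed), Aqp4 and Slc1a3, were called higher in the newborn. In bulk tissue fewer cells of a type and less RNA per cell cannot be told apart.

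**Figure D1:**
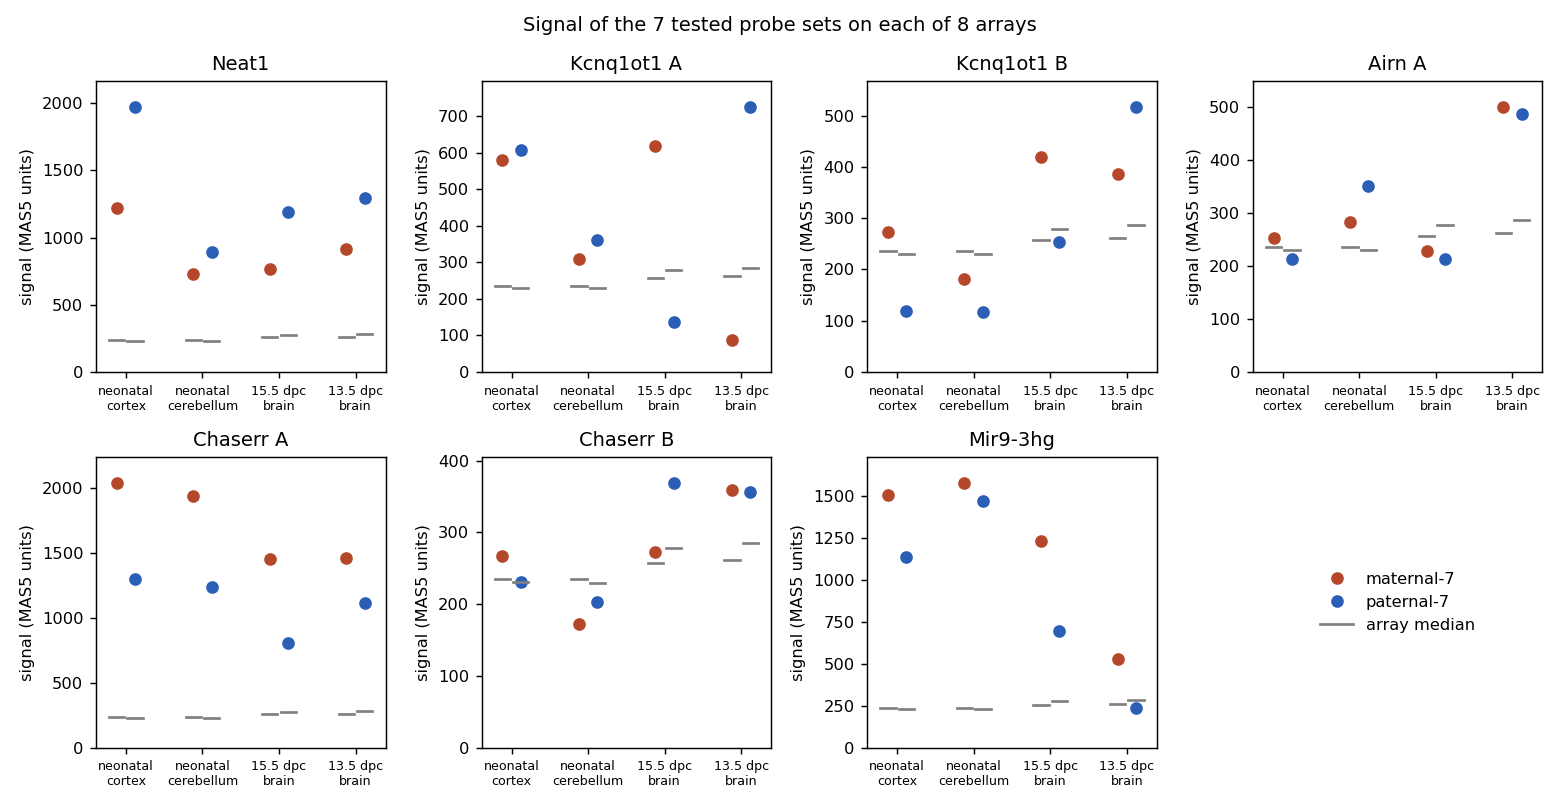
Signal (MAS5 units, linear axis from 0) of the 7 tested probe sets in each context, 1 point per array, red for maternal-7 and blue for paternal-7, with the array medians as grey ticks. Neat1 lies between 731 and 1969 with the paternal-7 point above in each context, Chaserr A lies between 808 and 2034 with the maternal-7 point above, and Mir9-3hg falls to 235 in the 13.5 dpc paternal-7 brain.

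Mir9-3hg had its lowest mean signal at 13.5 dpc and its highest in newborn cerebellum. Its signals were 528 in the maternal-7 and 235 in the paternal-7 brain at 13.5 dpc, and 1228 and 695 at 15.5 dpc. In newborns they were 1502 and 1132 in cortex, and 1574 and 1468 in cerebellum. Both 13.5 dpc values lay below both 15.5 dpc values, and the lowest, the paternal-7 brain at 13.5 dpc, was below its array median. Groups of 2 arrays that did not overlap between the embryonic ages, in either direction, were seen for 46.6% of all tested probe sets. In falling order the context means were 1521 ± 74.7 in cerebellum, 1317 ± 262 in cortex, 961 ± 377 at 15.5 dpc and 382 ± 207 at 13.5 dpc (SD, n = 2 arrays, 1 of each duplication), and neighbours in this order overlapped except for the embryonic ages.

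Newborn and embryonic samples differ in the part of brain taken as well as in age. The newborn samples exceeded the embryonic ones by 1.20 ± 0.18 on the log2 scale (2.29-fold, adjusted p = 0.00461). This call was made for 30.7% of all tested probe sets (14.3% higher and 16.4% lower in the newborn), and for 3 of the 7 tested probe sets described here, 1 higher and 2 lower. When each array's median was set to the same value, 69.4% rather than 46.5% of the probe sets called were higher in the newborn. The median difference of all tested probe sets was -0.16, or -0.06 after quantile normalization and 0.02 after median centring. Mir9-3hg stayed called when each array was left out in turn and under every other processing tried, with adjusted p-values of 9.41e-04 to 0.0312. It was also higher at 15.5 than at 13.5 dpc, by 1.25 ± 0.26 (2.37-fold, adjusted p = 0.0406), where 6.59% of all tested probe sets (3.52% higher and 3.07% lower at 15.5 dpc) and 2 of the 7, 1 in each direction, were called. That second call was lost when any 1 array was left out (adjusted p = 0.0516 to 0.204) and in 4 of the 6 other settings. The neuron markers given above moved in the same direction as Mir9-3hg over these ages, and their part in the result was not tested. Cortex and cerebellum differed by -0.21 ± 0.26 (adjusted p = 0.953, 95% interval -0.82 to 0.40).

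Genes tied to miR-9, a list of known targets and host transcripts, could be tested for 9 of 18 names. Rest, which blocks neuronal genes outside neurons, had signals of 1381 and 1359 at 13.5 dpc (maternal-7 and paternal-7), 556 and 635 at 15.5 dpc, 352 and 358 in cortex, and 367 and 299 in cerebellum. The embryonic and the newborn values did not overlap, as for 28.4% of all tested probe sets, nor did those of the embryonic ages, as for 46.6%. Rest fell by 1.13 ± 0.19 from 13.5 to 15.5 dpc (adjusted p = 0.0267) and was lower in newborn than in embryonic samples (-1.27 ± 0.14, adjusted p = 0.00164). The first of these calls was lost when any 1 array was left out, with adjusted p up to 0.131, and the second was kept each time. Nr2e1, the other target named above, had signals of 842 and 590 at 13.5 dpc and 840 and 844 at 15.5 dpc. It was at 725.5 and 752 in cortex, and 495 and 422 in cerebellum. It was not called between the embryonic ages (0.24 ± 0.21, adjusted p = 0.557) or in the newborn (-0.37 ± 0.15, adjusted p = 0.0929). Nor was its dimmer tested probe set (0.25 ± 0.28, adjusted p = 0.665, and -0.56 ± 0.20, adjusted p = 0.0715). C130071C03Rik, the transcript that contains Mir9-2, had signals of 2052 and 767 at 13.5 dpc, 4768 and 2716 at 15.5 dpc, 4157.5 and 3416.5 in cortex, and 2028 and 1582.5 in cerebellum. It was called higher at 15.5 than at 13.5 dpc (1.47 ± 0.29, adjusted p = 0.0368), a call kept in 1 of 8 leave-one-array-out fits. Unlike that of Mir9-3hg, its newborn minus embryonic difference of 0.28 ± 0.21 was not called (adjusted p = 0.329), and the difference between the genes was not tested. Of the 9 genes, 1 was called higher and 1 lower between the embryonic ages, beside 3.52% and 3.07% of all tested probe sets. In the newborn 0 were called higher and 1 lower, beside 14.3% and 16.4% of all tested probe sets. The median newborn minus embryonic difference of the 9 genes was -0.17, beside -0.16 over all tested probe sets.

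**Figure D2:**
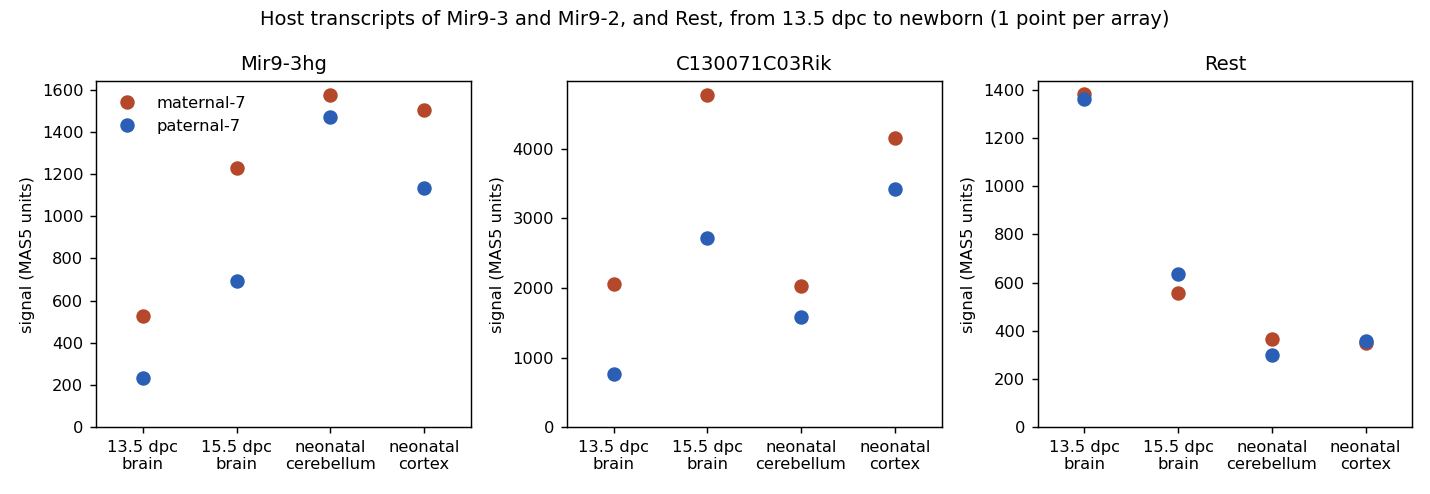
Signal (MAS5 units, linear axes from 0) of Mir9-3hg, C130071C03Rik and Rest from 13.5 dpc to the newborn regions, 1 point per array, red for maternal-7 and blue for paternal-7. Mir9-3hg is lowest at 13.5 dpc (528 and 235), where Rest is highest (1381 and 1359), and C130071C03Rik is high at 15.5 dpc and in cortex and lower in cerebellum. Nr2e1, which was not called between these ages, is not shown.

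Between the duplications Mir9-3hg was lower in paternal-7 in 4 of 4 contexts. The log2 differences were -0.77 at 15.5 dpc, -1.0 at 13.5 dpc, -0.39 in cortex and -0.10 in cerebellum, so the embryonic pairs were further apart than the newborn pairs. The fitted difference was -0.56 ± 0.18 (1.48-fold, adjusted p = 0.540) and was not called. The difference between the newborn and the embryonic duplication effects was 0.64 ± 0.26 (adjusted p = 0.544). C130071C03Rik was also lower in paternal-7 in 4 of 4 contexts, at -0.69 ± 0.21 (adjusted p = 0.535) on its brightest probe set. Its other 2 tested probe sets differed by 0.07 and 0.13, each higher in paternal-7 in 2 of 4 contexts. On the brightest probe set of each gene, the 9 genes of the miR-9 list had fitted differences below 0, with a median of -0.15 against 0.01 for all tested probe sets, and 0 of the 9 were called. Of the 12 other tested probe sets of these genes, 8 lay below 0 and 4 above it, from -0.75 to 0.51, the highest being one of Foxp4. Beside these values, the summed signal of the 2 tested progenitor markers (of 8 listed), Top2a and Rfx4, was lower in paternal-7 in every context. It was 1113 and 758 in cortex, 1675 and 1565 in cerebellum, 1489 and 775 at 15.5 dpc, and 1014 and 582 at 13.5 dpc, maternal-7 first, and no value was at 0. In maternal-7 cortex Rfx4 gave 906 of this sum, and Top2a was above the median on 3 of 8 arrays. Between newborn and embryo these 2 markers were called in opposite directions. Rfx4 was higher in the newborn (0.81 ± 0.16, adjusted p = 0.0117) and Top2a lower (-0.71 ± 0.21, adjusted p = 0.0409). The summed signal of the 3 tested cerebellum markers (of 11 listed), Zic1, Lhx9 and Tfap2b, was likewise lower in paternal-7 in every context. It was 7165 and 4413 in cortex, 13347 and 12084 in cerebellum, 9972 and 5207 at 15.5 dpc, and 6694 and 4223 at 13.5 dpc. Zic1, at 6283 and 3646, gave most of the cortex sum. It was not called between the regions (cortex minus cerebellum 0.05 ± 0.23, adjusted p = 0.994), so here it did not set cerebellum apart from cortex. Tfap2b alone was higher in paternal-7 cortex (339 and 363). The fitted differences were -0.55 to -0.49 for the progenitor, -0.91 to -0.39 for the cerebellum and -0.39 to -0.20 for the 3 tested choroid plexus markers, and 0 of these 8 genes were called by limma. Whether these marker signals reflect cell numbers was not tested, nor was their part in the Mir9-3hg difference.

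Chaserr gave different pictures from its probe sets. Chaserr A had signals of 2034 (maternal-7) and 1297 (paternal-7) in cortex, 1938 and 1239 in cerebellum, 1455 and 808 at 15.5 dpc, and 1455 and 1111 at 13.5 dpc. The paternal-7 sample was the lower in each of the 4 contexts, by 0.63, 0.62, 0.80 and 0.37 on the log2 scale, and every array was above its 75th percentile. Over contexts the maternal-7 arrays averaged 1721 ± 309 and the paternal-7 arrays 1114 ± 218 (SD, n = 4). Every maternal-7 signal lay above every paternal-7 signal, which holds for 1 of the 7 tested probe sets described here and for 0.779% of all tested probe sets (1.73% with either group wholly above the other). The fitted difference was -0.61 ± 0.14 (1.52-fold, 95% interval -0.93 to -0.28), which placed it 64th by p-value among 13221, but after adjustment it was not called (adjusted p = 0.532). Leaving out any 1 array gave -0.68 to -0.54, with adjusted p of 0.583 to 0.758. The duplication effect of the newborn differed from that of the embryonic contexts by -0.04 ± 0.27 (adjusted p = 0.970).

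Chaserr B did not show this difference. Its signals were 267 and 231 in cortex, 172 and 203 in cerebellum, 273 and 369 at 15.5 dpc, and 359 and 357 at 13.5 dpc, maternal-7 first. Both cerebellum values were below the array median, and the paternal-7 sample was higher in 2 of 4 contexts (0.09 ± 0.14, adjusted p = 0.859). Between newborn and embryonic samples the probe sets also went opposite ways. Chaserr B was called lower in newborn than in embryonic samples (-0.53 ± 0.14, adjusted p = 0.0344), where the groups did not overlap, as for 28.4% of all tested probe sets. Chaserr A had a difference of 0.42 ± 0.14 (adjusted p = 0.0572), which was called after median centring (0.59, adjusted p = 0.0210) and under the stricter filter (adjusted p = 0.0249). The call of Chaserr B was lost after quantile normalization (-0.35, adjusted p = 0.118), after median centring (-0.35, adjusted p = 0.120), with no filter (adjusted p = 0.0625) and in 7 of 8 leave-one-array-out fits. The Pearson correlation between the probe sets was -0.56 over the 8 arrays, which share the same tissues. The sources used here do not say which stretch of Chaserr each probe set matches. By context Chaserr A averaged 1665 ± 521 in cortex and 1588.5 ± 495 in cerebellum, followed by 1283 ± 244 at 13.5 dpc and 1131 ± 458 at 15.5 dpc (SD, n = 2), and all neighbours in this order overlapped.

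Chd2, which overlaps Chaserr in RefSeq and is the gene it regulates, had signals of 1777 and 1358 in cortex, 1531 and 1466 in cerebellum, 1340.0 and 1379.7 at 15.5 dpc, and 1571 and 1690.4 at 13.5 dpc, maternal-7 first. It was higher in paternal-7 in 2 of 4 contexts, and its fitted duplication difference was -0.07 ± 0.14 (adjusted p = 0.886). Its newborn minus embryonic difference was 0.03 ± 0.14. Rgma, a neighbour of Chd2 and a guidance molecule of growing axons, was called higher in the newborn (0.75 ± 0.16, adjusted p = 0.0144). Of 14 listed neighbours of Chaserr and Mir9-3hg on chromosome 7, 8 could be tested and 0 were called between the duplications by limma, with a median of -0.02. In newborn against embryonic samples 2 of the 8 were called higher and 1 lower, where 14.3% of all tested probe sets were called higher and 16.4% lower. The median was 0.13 beside -0.16 over all tested probe sets. Besides Rgma the genes called were Sv2b, a synaptic vesicle protein (1.13 ± 0.17, adjusted p = 0.00494), and Kif7, a kinesin of the Hedgehog pathway. The other tested probe set of Sv2b was not called (0.38 ± 0.15, adjusted p = 0.103). Kif7 was at 701 and 842 at 13.5 dpc and below the array median on all other arrays. It was at least 2.87-fold lower at 15.5 than at 13.5 dpc (fitted -1.69 ± 0.33, adjusted p = 0.0343) and at least 1.67-fold lower in the newborn than in the embryo, where 2 of 4 arrays were above the median (fitted -1.55 ± 0.23, adjusted p = 0.00434), the bounds being taken against the array median. With any 1 array left out, Kif7 was no longer called between the embryonic ages (adjusted p = 0.0519 to 0.137), while Rgma kept its call in 5 of 8 such fits.

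Neat1 gave its higher signals in cortex rather than cerebellum and in paternal-7 rather than maternal-7 samples, and neither difference passed the adjusted threshold. Its signals were 1222 (maternal-7) and 1969 (paternal-7) in cortex, 731 and 895 in cerebellum, 763 and 1188 at 15.5 dpc, and 914 and 1292 at 13.5 dpc. All arrays were above their 75th percentile. The paternal-7 sample was the higher in 4 of 4 contexts, by 0.66, 0.27, 0.60 and 0.47 on the log2 scale. Over contexts the groups averaged 1336 ± 454 in paternal-7 and 908 ± 224 in maternal-7 (SD, n = 4), and they overlapped. The fitted difference was 0.50 ± 0.13 (1.42-fold, 95% interval 0.18 to 0.82, adjusted p = 0.535).

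One sign in 4 of 4 contexts was seen for 3 of the 7 tested probe sets, namely Neat1, Chaserr A and Mir9-3hg, and for 18.7% of all tested probe sets (9.67% higher and 9.08% lower in paternal-7). Of the 7, 0 were called between the duplications by limma, against 0.00756% of all tested probe sets. The same 3 had an unadjusted p under 0.05, as did 8.68% of all tested probe sets. The duplication effect was called to differ between newborn and embryonic contexts for 0 of the 7 and for 0% of all tested probe sets, where 9.14% of all and 0 of the 7 had an unadjusted p under 0.05.

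**Figure D3:**
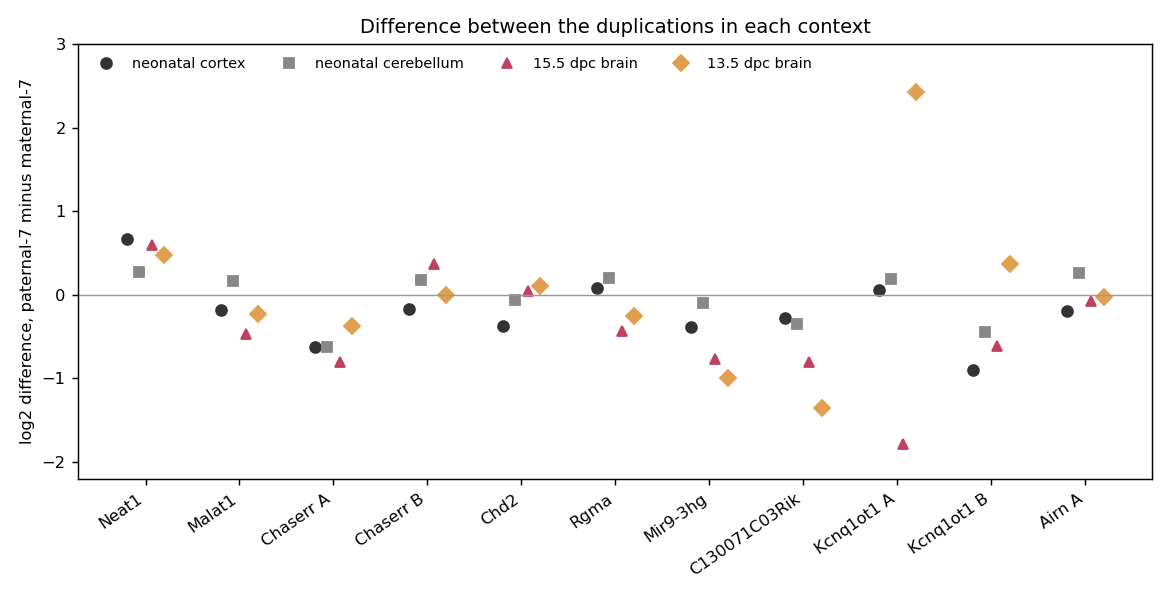
Log2 difference, paternal-7 minus maternal-7, of log2(signal + 58.5) in each context (marker shape and colour) for the tested probe sets and for Malat1, Chd2, Rgma and C130071C03Rik. All 4 points of Neat1 lie above 0 and those of Chaserr A, Mir9-3hg and C130071C03Rik below it, while the points of Kcnq1ot1 A spread from -1.78 to 2.42.

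Between regions, both cortex values of Neat1 (1222 and 1969) lay above both cerebellum values (731 and 895). The difference was 0.89 ± 0.19 (1.86-fold, adjusted p = 0.212). In this contrast 0.325% of all tested probe sets and 0 of the 7 were called by limma, while 7.65% of all and 1 of the 7, Neat1, had an unadjusted p under 0.05. Groups of 2 arrays that did not overlap were seen for 41.0% of all tested probe sets in this contrast. The other differences of Neat1 were -0.18 ± 0.19 between 15.5 and 13.5 dpc (adjusted p = 0.641) and 0.13 ± 0.13 between newborn and embryo (adjusted p = 0.465). The context means fell from 1595.5 ± 528 in cortex through 1103 ± 267 at 13.5 dpc and 976 ± 300.0 at 15.5 dpc to 813 ± 116 in cerebellum (SD, n = 2), and each neighbouring pair overlapped.

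Of 24 listed paraspeckle proteins 11 could be tested, and 0 were called between the duplications, between the regions or between the embryonic ages by limma. The shares of all tested probe sets called there were 0.00756%, 0.325% and 6.59%. Sfpq, a core protein of the paraspeckle, had a paternal-7 minus maternal-7 difference of -0.01 ± 0.15 (adjusted p = 0.993). For Nono, its binding partner, that difference was 0.16 ± 0.18 (adjusted p = 0.790). The list's median duplication difference was -0.02, beside 0.01 over all tested probe sets. In newborn against embryonic samples 14.3% of all tested probe sets were called higher and 16.4% lower. Of the 11 proteins 1 was called, higher in the newborn, namely Ss18l1, a neuronal subunit of a chromatin remodelling complex (0.50 ± 0.13, adjusted p = 0.0310). Its second probe set was called in the other direction (-0.55 ± 0.12, adjusted p = 0.0177), and the call of the first was kept in 1 of 8 leave-one-array-out fits.

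Malat1, the neighbour of Neat1 and another abundant nuclear RNA, which marks nuclear speckles, had signals of 939.6 and 820.4 in cortex, 492 and 558 in cerebellum, 601 and 419.8 at 15.5 dpc, and 802 and 676 at 13.5 dpc, maternal-7 first. On this brighter probe set its cortex values also lay above its cerebellum values (0.68 ± 0.21, adjusted p = 0.443). On its other tested probe set cortex (318 and 292) and cerebellum (352 and 163) overlapped (0.27 ± 0.30, adjusted p = 0.944). Between the duplications Malat1 did not follow Neat1. The brighter probe set was higher in paternal-7 in 1 of 4 contexts (-0.18 ± 0.15, adjusted p = 0.715). The other was higher in 2 of 4 (-0.13 ± 0.22, adjusted p = 0.867). The difference between the 2 genes was not tested. Of 9 listed neighbours 3 could be tested, and 1, Cdc42ep2, a regulator of the actin skeleton, was called lower in the newborn (-0.43 ± 0.13, adjusted p = 0.0439), a call lost when any 1 array was left out. Of all tested probe sets 16.4% were called lower in the newborn.

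The imprinted Kcnq1ot1 gave 2 probe sets above background on part of the arrays. Kcnq1ot1 A had signals of 579 (maternal-7) and 606 (paternal-7) in cortex, 309.8 and 362 in cerebellum, 617 and 138 at 15.5 dpc, and 87.5 and 723 at 13.5 dpc. The newborn pairs were close together, while the embryonic pairs differed by -1.78 and 2.42 on the log2 scale, in opposite directions, each with 1 array below its median. The duplication difference was accordingly 0.22 ± 0.59 (adjusted p = 0.921), with a 95% interval of -1.18 to 1.62. Leaving out 1 context pair turned its sign, with values from -0.51 to 0.89. By context it averaged 592.5 ± 19 in cortex, 405.5 ± 450 at 13.5 dpc, 377 ± 339 at 15.5 dpc and 336 ± 36.6 in cerebellum (SD, n = 2), and each neighbouring pair overlapped.

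Kcnq1ot1 B followed another course. Its signals were 273 and 119 in cortex, 181 and 118 in cerebellum, 419 and 254 at 15.5 dpc, and 385 and 516 at 13.5 dpc, maternal-7 first. In the newborn 3 of 4 arrays were below their median, and in the embryo 1 of 4. Kcnq1ot1 B was called lower in newborn than in embryonic samples (-0.98 ± 0.22, adjusted p = 0.0176), and with 1 newborn array above its median no fold is given. The call held under quantile normalization, median centring, both other pseudocount settings and no filter (adjusted p = 0.0224 to 0.0388). It was lost without the paternal-7 cortex (adjusted p = 0.0800), the maternal-7 cerebellum (0.0601), the paternal-7 cerebellum (0.0744) or the maternal-7 15.5 dpc brain (0.0527). Between the duplications the difference was -0.40 ± 0.22 (adjusted p = 0.615), lower in paternal-7 in 3 of 4 contexts. Over the 8 arrays the correlation between Kcnq1ot1 A and B was 0.01. Kcnq1ot1 lies within Kcnq1 on chromosome 7, and the part of this long transcript that each probe set matches was not analysed here.

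Of 17 listed genes of the Kcnq1 domain 2 had a probe set, and 1 was tested. That gene, Tspan32, a tetraspanin of blood cells, had a duplication difference of 0.54 ± 0.22 (adjusted p = 0.574). Trpm5, a taste cell channel, stayed between 10.8 and 47.2, below every array median.

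The imprinted Airn had 1 tested probe set, Airn A, which was above the median on 5 arrays. Airn A had signals of 252 (maternal-7) and 214 (paternal-7) in cortex, 283 and 351 in cerebellum, 227 and 212.5 at 15.5 dpc, and 499 and 487 at 13.5 dpc. The 13.5 dpc brains lay above all other samples, a pattern whose share among all tested probe sets was not counted. Both 15.5 dpc brains were below their array medians. Airn A was called lower at 15.5 than at 13.5 dpc (-0.99 ± 0.19, adjusted p = 0.0370). As the 15.5 dpc side was not above background, the difference is a bound, at least 1.84-fold higher at 13.5 dpc. The call was lost when any 1 array was left out (adjusted p = 0.0666 to 0.160) and with no filter (adjusted p = 0.0757). Between these ages the arrays of 46.6% of all tested probe sets did not overlap.

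Between the duplications Airn A gave the smallest difference of the 7, at -0.01 ± 0.14 (adjusted p = 0.987, 95% interval -0.34 to 0.32), and it was higher in paternal-7 in 1 of 4 contexts. Its gene lies on chromosome 17, outside the duplicated chromosomes. The context means were 493 ± 8.5 at 13.5 dpc, 317 ± 48.2 in cerebellum, 233 ± 27.2 in cortex and 220.0 ± 10.6 at 15.5 dpc (SD, n = 2). The first 3 of these did not overlap with each other, and the last overlapped with cortex. Cortex and cerebellum did not overlap for 41.0% of all tested probe sets. That share was not counted for 13.5 dpc against the newborn regions. The cortex minus cerebellum difference was -0.36 ± 0.19 (adjusted p = 0.768) and the newborn minus embryonic difference -0.25 ± 0.14 (adjusted p = 0.205). Of 8 listed genes of the Airn domain 2 could be tested, Agpat4, an acyltransferase of phospholipid synthesis, and Map3k4, a kinase of stress signalling. On its brightest probe set Agpat4 differed by 0.16 ± 0.13 between the duplications (adjusted p = 0.703) and Map3k4 by 0.53 ± 0.24 (adjusted p = 0.578). Of the 2 genes, 0 were called in any contrast by limma. The other tested probe set of Agpat4 differed by -0.16 ± 0.28 (adjusted p = 0.873) and that of Map3k4 by 0.05 ± 0.19 (adjusted p = 0.946).

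**Figure D4:**
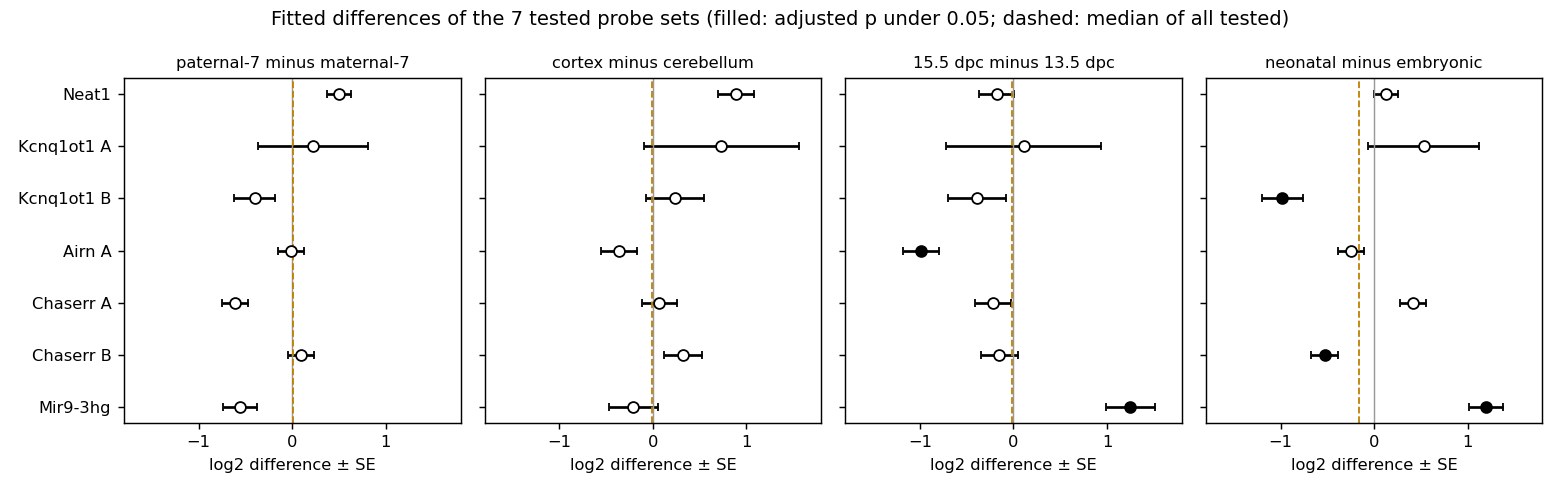
Fitted log2 difference with its standard error for the 7 tested probe sets in 4 contrasts, filled where the adjusted p was under 0.05, with the median of all tested probe sets as a dashed line. Filled points are Airn A (-0.99) and Mir9-3hg (1.25) between 15.5 and 13.5 dpc, and Kcnq1ot1 B (-0.98), Chaserr B (-0.53) and Mir9-3hg (1.20) between newborn and embryo.

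The genes whose pattern was most like each tested probe set were taken by Pearson correlation of log2(signal + 58.5) over the 8 arrays among 9772 tested probe sets with 1 gene symbol. For Mir9-3hg these were Gmps (r = 0.994), Lyrm9 (0.991) and Ano4 (0.991), and for Neat1 Ankrd63 (0.932), Chrm1 (0.888) and Zfyve9 (0.886). Chaserr A was closest to Peli2 (0.955), Sbsn (0.946) and Fnip1 (0.943), and Chaserr B to Dgcr8 (0.973), Ndnf (0.965) and Dleu2 (0.962). Kcnq1ot1 A was closest to Neto2 (0.960), Sbf2 (0.934) and E430016F16Rik (0.931), Kcnq1ot1 B to Swt1 (0.971), Gas2l3 (0.970) and Nars2 (0.968), and Airn A to Atp8b2 (0.971), 1810010K12Rik (0.969) and Tmtc3 (0.967). With 8 arrays from 4 contexts many probe sets share such a course, so these values describe the arrays and carry no test. Among the 7 probe sets themselves the highest correlation was that of Kcnq1ot1 B with Chaserr B (0.73) and the lowest that of Chaserr B with Mir9-3hg (-0.80).

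Over the 8 arrays Mir9-3hg spanned 2.47 log2 units and Kcnq1ot1 A 2.42, more than 94.2% and 93.6% of all tested probe sets. Chaserr B spanned 0.89 (more than 35.8%) and Airn A 1.04 (more than 48.2%). The span of Mir9-3hg ran from 235 in the 13.5 dpc paternal-7 brain to 1574 in the maternal-7 cerebellum. Its 13.5 dpc arrays themselves differed by -1.0 log2 units, paternal-7 minus maternal-7. The span of Kcnq1ot1 A lay between the 13.5 dpc arrays, at 87.5 and 723.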

How the data were processed

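Each of 8 total RNA samples had its own Affymetrix 430B array. The deposited signal intensities are linear and come from MAS5 per the submitters' processing notes, with its version, any detection calls and the genome build not given in the sources used here. On each array the mean between the 2nd and 98th percentiles was 499.9, so no further scaling was made. The 64 control probe sets were left out. By the platform annotation, with symbols updated through RefSeq (GRCm38.p6), 14661 of 22511 probe sets had 1 symbol, 245 several and 7605 none. RefSeq was used for names, gene order and the sequences shown.

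Values were log2(signal + 58.5), the pseudocount being the median of the arrays' 20th percentiles. limma 3.58.1 in R 4.3.3 fitted context and duplication to all 8 arrays (3 residual degrees of freedom), and a further model gave the duplication effect a newborn and an embryonic term (2 residual degrees of freedom). Probe sets that exceeded the median of 2 or more arrays were tested (58.7%), with Benjamini-Hochberg adjustment. The fits were tested on simulated data. A gene with several tested probe sets is counted by its brightest. Text names all probe sets of the 5 genes, listed genes that were called, immediate neighbours, the core paraspeckle proteins and the 3 most correlated genes for each. The values of Nr2e1 are given in addition, and were added after they were seen. Alternatives were quantile normalization, median centring, a pseudocount of 16, a floor of 1 without pseudocount, no filter, a filter at the 75th percentile, and leaving out each array or context pair. The genes, lists and tests were chosen with earlier results of these data known. The number of arrays limits the precision.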

Additional observations from a re-analysis of the deposited data

Results flagged for a closer look

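Kcnq1ot1 C, a dim probe set, was flagged because its newborn pairs moved one way and its embryonic pairs the other between the duplications. How often such opposite signs occur among all probe sets was not counted, so the pattern cannot be called unusual. The mean log2 difference, paternal-7 minus maternal-7, was -0.35 in the newborn and 0.68 in the embryo, which is -1.03 apart. The difference was not tested, since all 8 signals (25.8 to 182.3) were below their array medians. The embryonic mean came mainly from the older pair, with 1.16 at 15.5 dpc against 0.20 for the 13.5 dpc pair.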

How the results depend on the processing

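The model holds context as a term and so compares the 2 arrays of each context as a pair, and as the labels give no replicate numbers no further block was fitted. Of the called results of the 5 genes, Mir9-3hg between newborn and embryo was kept under each of the 14 alternatives. Called probe sets between the duplications numbered 1 as reported, 0 with a floor of 1 or no filter, 4 with the stricter filter, and 0 to 2 with an array or context pair left out. Between the regions they numbered 43, then 27 with a pseudocount of 16, 22 with the floor, 11 with no filter, 83 with the stricter filter and 0 to 21 with an array left out. Between the embryonic ages 871 became 459 with the floor, 207 with no filter, 1354 with the stricter filter and 0 to 522 with an array left out, and between newborn and embryo 4053 became 1826 to 3523 with an array left out. Fewer residual degrees of freedom are part of leaving out an array.

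Called chromosome 7 neighbours between the embryonic ages (1 as reported) were 2 with quantile normalization or the stricter filter and 0 with a pseudocount of 16, the floor, no filter or any array left out. Called miR-9 genes there (2) were 1 with a pseudocount of 16 or the floor, 0 with no filter and 0 to 1 with an array left out. Between newborn and embryo, called miR-9 genes (1) were 3 with median centring or the stricter filter, paraspeckle proteins (1) were 3 with those settings, 0 with no filter and 0 to 2 with an array left out, Kcnq1 domain genes (0) were 1 with quantile normalization or the stricter filter and 0 to 1 with an array left out, and neighbours of Neat1 (1) were 0 with median centring, a pseudocount of 16, the floor, no filter or any array left out. The cause was not tested.

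Values that were not called turned sign as follows. The duplication effect, newborn minus embryonic, became 0.04 (quantile normalization) and 0.09 (median centring) for Chaserr A and 0.05 (median centring) for Neat1. With an array left out it ranged from -0.25 to 0.18 for Chaserr A, -0.26 to 0.13 for Neat1, -0.36 to 0.01 for Chaserr B, -0.14 to 0.32 for Airn A and -2.30 to 1.91 for Kcnq1ot1 A. The duplication difference ranged from -0.10 to 0.05 for Airn A and -0.51 to 0.89 for Kcnq1ot1 A. The region difference ranged from -0.10 to 0.57 for Kcnq1ot1 B and -0.52 to 0.10 for Mir9-3hg. Between the embryonic ages the range was -1.36 to 1.57 for Kcnq1ot1 A, -0.90 to 0.12 for Kcnq1ot1 B and -0.33 to 0.04 for Chaserr B, and between newborn and embryo -0.20 to 1.26 for Kcnq1ot1 A. With 1 array per context and duplication, signals near the array medians are the least certain.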

Other observations

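Further probe sets of some listed genes gave another call than the brightest one between newborn and embryo. Cpsf6, a paraspeckle protein of messenger RNA 3' processing, differed by 0.37 ± 0.13 on its brightest probe set (limma, adjusted p = 0.0729), while another was called lower in the newborn (-1.13 ± 0.18, adjusted p = 0.00544), with signals of 178 to 319 in newborn and 495 to 815 in embryonic samples. Foxp2, a forkhead factor on the miR-9 list, differed by 0.40 ± 0.12 (adjusted p = 0.050) on its brightest probe set and was called higher in the newborn, in the same direction, on another (0.80 ± 0.14, adjusted p = 0.00721). Onecut2, a further factor on that list, differed by -0.17 ± 0.15 (adjusted p = 0.404) on its brightest probe set and was called higher in the newborn on another (0.87 ± 0.22, adjusted p = 0.0273). These probe sets were named after their values were seen.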
